A study of Mus musculus with 7 samples.

Results

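A small population of mouse liver T cells was singled out by its transcripts for Klra6, an inhibitory-type Ly49 receptor better known from natural killer (NK) cells, and Ikzf2, the transcription factor Helios. The cells were chosen by measured counts of unique molecular identifiers (UMIs, which tag single RNA molecules). A barcode needed a minimum of 500 UMIs and 200 detected genes, with mitochondrial genes below 20% of its UMIs. It also had at least 2 UMIs in the sum of Cd3d, Cd3e and Cd3g, the CD3 chains of the T cell receptor, and at least 1 UMI each of Klra6 and Ikzf2. Barcodes with any UMI of Trdc, Foxp3, Zbtb16 or Cd8b1 were not taken, which left out cells carrying transcripts of the gamma delta receptor, of regulatory T cells, of invariant NKT cells and of conventional CD8 T cells. The rule found 912 cells among 62304 kept barcodes and 13510 CD3+ cells, and 12598 CD3+ cells did not meet it.

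All 7 samples were livers of mice given plasmids for Nras and C-myc by hydrodynamic tail vein injection, a rapid injection that brings plasmids into hepatocytes and here sets up liver tumours, and were taken 2 weeks later. The 3 controls carried only these oncogene plasmids. For the 4 treated samples a plasmid expressing IL-2/CD25 was co-delivered, a fusion of the T cell growth factor interleukin 2 with the alpha chain of its receptor. The tissue is labelled HCC tissue, and the labels give neither strain nor age and do not say whether samples came from separate animals, so p-values measure the spread between samples, which may be technical.

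Innate-like T cells carry rearranged T cell receptors but resemble innate lymphocytes in their readiness to release chemokines, cytokines and cytotoxic proteins. Ly49 receptors bind class I MHC molecules and are found on NK cells and on some unconventional T cells, and Helios is expressed in many regulatory T cells and in T cells that met strong receptor signals in the thymus. CD160, CD122 (the beta chain of the IL-2 and IL-15 receptors, gene Il2rb) and the adaptor Fcer1g are known from liver and gut innate-like lymphocytes. IL-2 acts on T and NK cells through CD122 and the common gamma chain, with CD25 (Il2ra) raising the affinity.

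The controls yielded 16, 13 and 8 of the cells, and the treated samples 217, 136, 169 and 353. The kept barcodes had a median of 6253.5 to 8724 UMIs in the controls, and 3215 to 4477.5 with treatment, and any 2 libraries shared 14 to 37 barcode sequences. Within the chosen cells the median was 5695 to 7662 UMIs in the controls, and 3885 to 4820 with treatment, close to 5547.5 to 6025 and 3816 to 4921 in other CD3+ cells. A doublet caller marked 11.8% of the chosen cells and 11.2% of other CD3+ cells. In control 3 a single barcode of 191324 UMIs made up 77.4% of the summed UMIs of its 8 cells and held 1056 UMIs of the tumour keratin Krt18, 553 of Krt8 and 361 of Myc. With fewer than 10 cells, control 3 did not enter the fits across genes, which compare 2 controls with 4 treated samples. Controls 1 and 2 held 2 and 1 barcodes over 20000 UMIs, treated sample 4 held 1, and the other treated samples held 0. The highest in control 1 carried 1106 UMIs of the neutrophil gene S100a8. The fits across genes were therefore repeated with barcodes over 20000 UMIs left out, an alternative chosen after seeing the data.

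Klra6 and Ikzf2 were often found together. Among CD3+ cells without the 4 excluded transcripts, 76.3% of those with a Klra6 UMI also had Ikzf2, against 40.6% of those without Klra6. Before the exclusions 1244 CD3+ cells had both genes, of which 158 carried Trdc, 139 Cd8b1, 29 Zbtb16 and 27 Foxp3. Many cells sat at the edge of the gate: 49.1% had exactly 1 Klra6 UMI, 10.3% exactly 1 Ikzf2 UMI and 1.97% exactly 2 CD3 UMIs. Just outside it lay 284 cells with Klra6 but no Ikzf2, 1991 with Ikzf2 but no Klra6, and 19 with a single CD3 UMI. Klra6 was found in 0.0923% of control and 0.811% of treated B cells, 2.55% and 4.67% of CD3- Ncr1+ NK cells, and 2.79% and 7.29% of other CD3+ cells, and the source of these UMIs was not tested. These values describe the rule and are not tested.

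The first comparison asked how large the population was with and without the IL-2/CD25 plasmid. Among CD3+ cells it made up 3.27%, 6.47% and 1.96% in the controls and 8.21%, 5.25%, 5.26% and 8.90% in the treated samples. Control 2 lay above treated samples 2 and 3, and the difference between the means of 3.90% ± 2.32 (SD, n = 3) and 6.91% ± 1.93 (SD, n = 4) did not pass the exact two-sided permutation test over 35 splits (p = 0.171, adjusted over 2 shares 0.171). Among all kept barcodes it made up 0.168%, 0.179% and 0.0924% in the controls and 3.00%, 1.55%, 1.62% and 3.40% in the treated samples. These groups did not overlap, and the mean was 16.3-fold higher, at 2.39% ± 0.947 (SD, n = 4) against 0.146% ± 0.0472 (SD, n = 3). The exact permutation p was 0.0286, the smallest this design allows, and 0.0571 after adjustment over the 2 shares, so neither share passed 0.05. CD3+ cells as a whole numbered 201 to 489 per control and 2591 to 3965 per treated sample. Shares are relative, so more of these cells and fewer of the others cannot be told apart. Barcodes were then thinned to 1500 UMIs, and those with fewer were left out. This kept 5907 to 7460 of 7263 to 9520 barcodes per control, and 7003 to 9974 of 7244 to 10439 per treated sample. The share of CD3+ cells was then 1.22% ± 0.411 in the controls and 3.42% ± 1.16 in the treated samples, without overlap. Its exact permutation p was 0.0571, also after adjustment, and it rested on 4, 2 and 2 control cells. Thinned to 3000 UMIs, with shallower barcodes left out, the groups overlapped, with control 2 at 5.44% above treated samples 2 (4.64%) and 3 (4.75%). This kept 4629 to 6228 barcodes per control and 5985 to 8124 per treated sample. The means were 3.05% ± 2.09 and 5.96% ± 1.54 (exact permutation p = 0.143, also after adjustment).

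**Figure D1:**
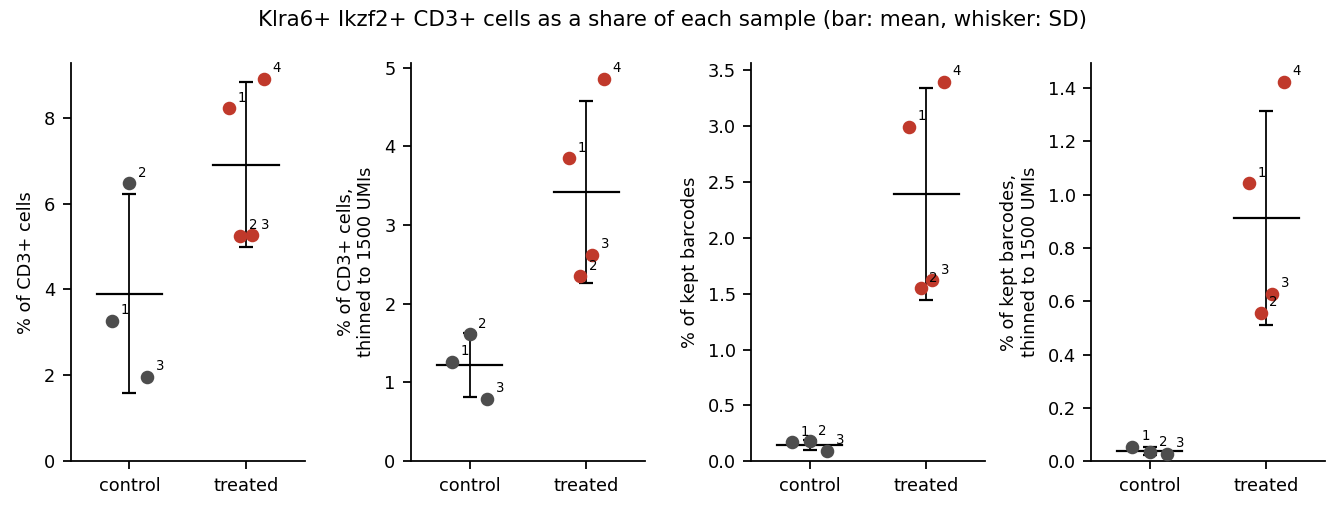
Share of the Klra6+ Ikzf2+ T cells per sample, in percent of CD3+ cells and of all kept barcodes, as counted and after thinning to 1500 UMIs. Barcodes with fewer than 1500 UMIs are left out of the thinned panels. Numbers are sample numbers, bars are means and whiskers SD. Control 2 (6.47%) lies above 2 treated samples in the first panel, while the groups do not overlap in the other 3. Thinning to 3000 UMIs, not drawn, leaves control 2 (5.44%) above 2 treated samples in the share of CD3+ cells.

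The cells were then described against the other CD3+ cells of the same sample, over the 6 samples with at least 10 of them. Values are CPM, the UMIs of a gene scaled to 1000000 UMIs of the summed cells, a ratio is log2 of CPM + 1, and no test was run because the same cells define the groups. Of 3730 genes with a mean of at least 50 CPM in either class, 348 were higher in every sample (9.33%) and 265 lower in every sample (7.10%). Leaving out barcodes over 20000 UMIs gave 240 and 287.

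Both constant genes of the alpha beta T cell receptor were found in most of the cells. Trbc2, a beta chain constant gene, averaged 1250 CPM against 821 and had a UMI in 93.8% of control and 95.3% of treated members, against 3.95% and 9.13% of B cells. Trac, the alpha chain constant gene, averaged 396 CPM against 358, was higher in 2 of 6 samples, and was found in 84.9% and 76.4%. A Cd4 UMI was found in 0 of 16, 0 of 13 and 0 of 8 control cells, with exact 95% upper limits on the share of cells with a UMI of 20.6%, 24.7% and 36.9%, and in 15 of 875 treated cells, a mean of 1.78% against 14.1% of other treated CD3+ cells and 2.96% of treated B cells. Cd8a was found in 38.9% ± 14.1 (SD, n = 3) of control and 27.5% ± 4.32 (SD, n = 4) of treated members, all of which lack Cd8b1 by the rule, against 1.37% and 1.76% of B cells. After thinning to 1500 UMIs the shares were 13.5% and 13.3%. Over the treated members 133 UMIs of beta variable segments fell on 19 segments, led by Trbv13-1 with 16 UMIs, and 231 UMIs of alpha variable segments fell on 51 segments, led by Trav13-1 with 7.79%. Trav11, part of the invariant NKT receptor, had 0 UMIs among 4751539, which allows up to 0.631 CPM. Alpha variable UMIs were few in these 3′ libraries, 11 in control and 231 in treated members. The 0 therefore cannot decide whether any member carried Trav11. The gamma chain gene Trgc2 was found in 23.9% and 19.8% of members, although Trdc is 0 by the rule, and 76.6% of the 201 gamma variable UMIs in treated members were Trgv2. Delta variable segments had 28 UMIs on 3 segments in treated members, 20 of them of Trdv4, and 0 UMIs in control members. Whether some members were gamma delta cells without a captured Trdc UMI was not tested.

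Of 15 genes considered for T cell receptor chains, coreceptors and proximal signalling, 2 were higher in all 6 samples and 4 lower, with a median log2 ratio of -0.09. The brake on T cell receptor signalling Cd5 averaged 51.7 against 117 CPM, its relative Cd6 67.1 against 172, the thymic selection gene Themis 30.5 against 98.1 and the adaptor Lat 102 against 166, all lower in every one of the 6 samples. Lck, the kinase that starts receptor signalling, was higher in every sample by a small margin (354 against 304 CPM).

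Ly49 genes showed a selective pattern. Klra7 led all genes named here, with 517 CPM ± 58.0 (SD, n = 6) against 111 ± 71.6 and a median log2 ratio of 2.33, and Klra1 followed with 251 ± 40.2 against 56.6 ± 35.5 (1.87). After thinning to 1500 UMIs, Klra7 was found in 47.4% ± 3.94 (SD, n = 4) of treated members, 13.4% of other treated CD3+ cells and 3.29% of treated B cells. Klra9 was also higher in all 6 samples (71.4 against 44.3 CPM). Klra4 and Klra8, Ly49 receptors of NK cells, were lower in all 6, and in the treated samples their 37.0 and 53.7 CPM in members lay below the 60.6 and 60.2 CPM of B cells, while NK cells had 641 and 632. The Ly49 genes are near-identical copies, so reads can be split between them and their values are uncertain.

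The edge of the gate showed the same genes differently on either side. In the treated samples the cells with Klra6 but no Ikzf2 had 579 CPM ± 242 (SD, n = 4) of Klra8 and 387 of Ncr1, an activating NK receptor, where the members had 53.7 ± 15.5 and 147. Trbc2 averaged 541 ± 155 CPM in these Ikzf2- cells and 1199 ± 158 in the members. Cells with Ikzf2 but no Klra6 had 43.9 CPM of Klra8 and 99.4 of Ncr1, with less Klra7 (247 CPM against 544) and Cd160 (196 against 320) and more Maf (333 against 58.7).

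Of 17 other NK receptor genes considered, 11 were higher in all 6 samples and 2 lower, with a median log2 ratio of 0.49. Cd160, the marker given for these cells that the rule does not use, averaged 288 CPM against 120 (median log2 ratio 1.34). Klre1, a partner of the KLRI receptors, averaged 467 against 234 CPM, the co-receptor Klrd1 672 against 359, the activating receptor NKG2D (Klrk1) 710 against 379 and the adhesion receptor Crtam 75.7 against 33.4. Klrg1, a receptor of terminally differentiated effectors, was lower (17.8 against 61.9 CPM). The signalling adaptors Fcer1g (971 against 527 CPM) and Hcst (739 against 524) were higher in every sample. Fcer1g was found in 93.8% of control and 90.1% of treated members, against 60.2% and 48.9% of other CD3+ cells, and 40.4% and 25.2% of B cells.

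Of 7 cytokine and chemokine genes considered 3 were higher in all 6 samples and 0 lower. Ccl5 averaged 10442 CPM against 5923 and Xcl1, which attracts cross-presenting dendritic cells, 470 against 227. Of 13 granule and death ligand genes 7 were higher in all 6 samples, among them Cd7 (551 against 275 CPM) and Ctsw (333 against 214), and 0 were lower. Other genes named by the rule were the growth factor gene Pdgfb, the signalling inhibitor Spry2, Ifngas1, a noncoding RNA beside Ifng, Arap3, Klhdc2, Lrrk1 and Nr4a2, a factor induced by receptor signalling, with median log2 ratios from 0.98 for Lrrk1 to 1.53 for Pdgfb. Eomes, a factor of cytotoxic lymphocytes, averaged 200 against 116 CPM.

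Lower in every sample were Areg, the repair growth factor amphiregulin (median log2 ratio -4.54), and Tnfrsf4, the costimulatory receptor OX40 (-3.66). Maf, a factor of helper, regulatory and gamma delta T cells, averaged 46.5 against 252 CPM, and the costimulatory receptor Icos 39.1 against 178. Il2ra, which encodes CD25, averaged 26.9 against 103 CPM. Dapl1, Fam169b and Tmem64 completed the genes named on this side with Themis and Klrg1. Il17a and Il23r had 0 UMIs in all members, so these genes of IL-17-making T cells were not detectable at this depth. Of the keratins of tumour cells 3 of 3 considered were lower in all 6 samples, and no neutrophil marker was higher in all 6. Summed neutrophil markers nevertheless read 36132 and 1536 CPM in members of controls 1 and 2, beside 3332 to 9016 in their other CD3+ cells. In the treated samples they read 215 to 2319 CPM in members and 322 to 981 in other CD3+ cells.

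**Figure D2:**
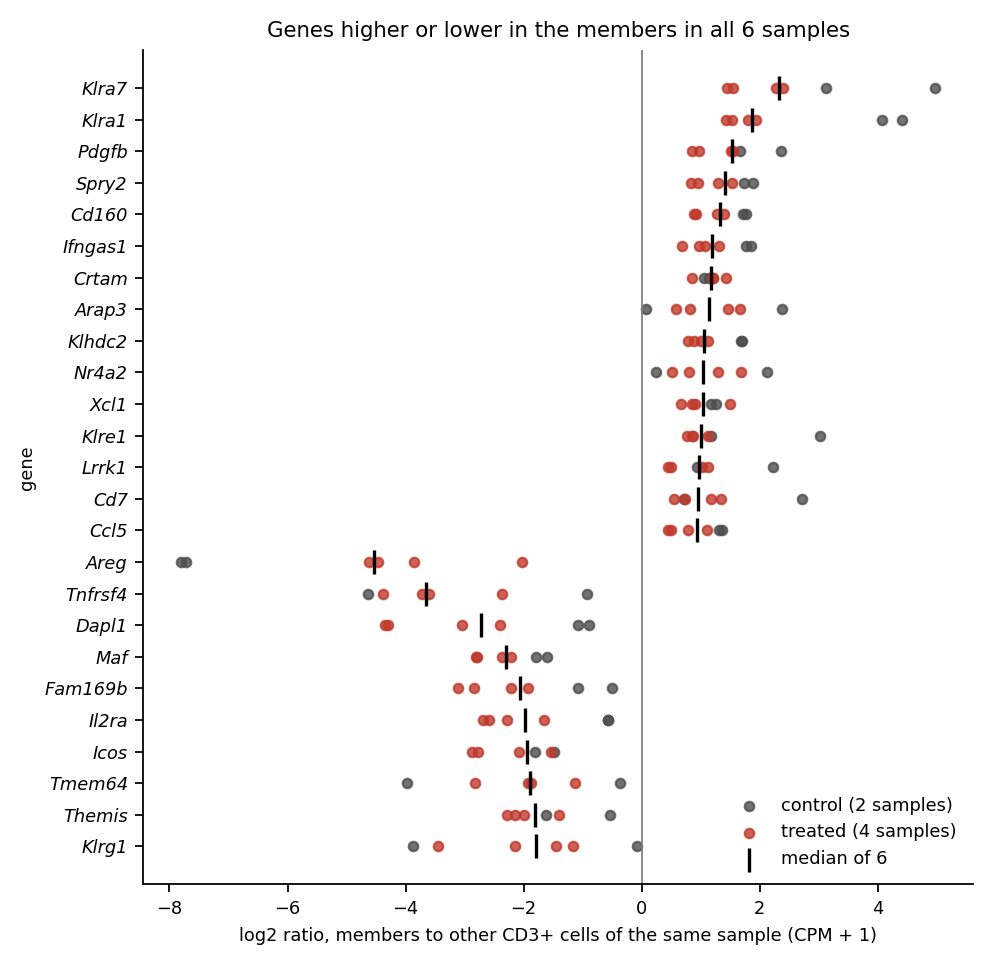
Log2 ratio of CPM + 1 between the Klra6+ Ikzf2+ T cells and other CD3+ cells of the same sample for the 25 genes named by the rule; each point is 1 of 6 samples and each black mark the median. Klra7 (median 2.33) and Klra1 (1.87) stand highest, Areg (-4.54) and Tnfrsf4 (-3.66) lowest.

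Set beside other T cell classes of the treated samples, the members lay closer to the CD3+ Trdc+ cells than to the Zbtb16+, Cd8b1+ or Foxp3+ cells in Cd160, Xcl1, Fcer1g and Cd7. Cd160 averaged 320 CPM ± 23.3 (SD, n = 4) in members and 273 ± 26.5 in Trdc+ cells, but 119 in Zbtb16+ and 63.3 in Cd8b1+ CD3+ cells. Xcl1 averaged 515 ± 69.4 and 433 ± 48.2, Fcer1g 1068 ± 110 and 1053 ± 229, and Cd7 704 and 693 CPM. Klra7 was 544 ± 33.4 CPM in members and 223 ± 55.8 in Trdc+ cells, and Maf was 58.7 in members, 216 in Trdc+ cells and 1273 in Foxp3+ cells. These classes were cut by single transcripts from the same cells, so the differences are given as values without a test.

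**Figure D3:**
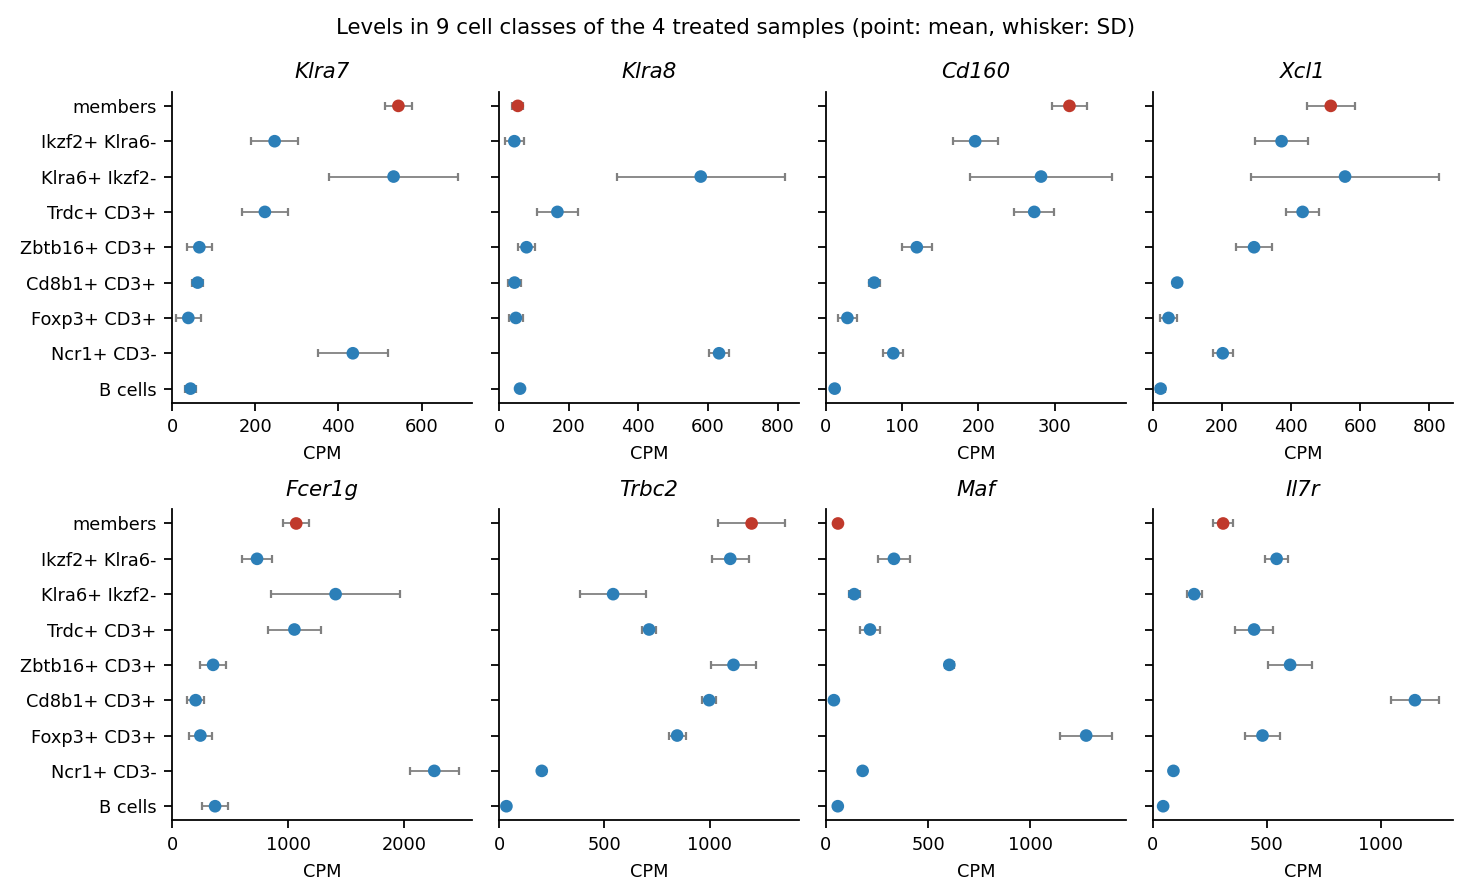
Mean CPM (points) and SD over the 4 treated samples (whiskers) of 8 genes in the Klra6+ Ikzf2+ T cells (red) and 8 other classes (blue), each panel with its own axis from 0. Members hold high Klra7, Cd160 and Xcl1 with Klra8 at the level of B cells, and Maf far below the Foxp3+ cells.

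Differences among the members were looked at through pairs of genes found in the same cells. In treated members thinned to 1500 UMIs, Itga1, the tissue adhesion integrin CD49a, was found in 24.9% ± 9.43 (SD, n = 4) of the 219 cells with an Il7r UMI and in 33.4% ± 3.25 of the 651 cells without one, lower with Il7r in 3 of 4 samples and within the spread between samples. Klra1 was found in 28.9% ± 5.15 of treated members with a Klra7 UMI and 25.0% ± 5.57 of those without, a difference below the spread between samples.

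The second comparison asked how gene expression within these cells differed with the IL-2/CD25 plasmid. By the quasi-likelihood test of edgeR at an adjusted p of 0.05, treated cells had 165 of 8402 genes higher (1.96%) and 362 lower (4.31%), 6.27% in all. Without barcodes over 20000 UMIs 73 were higher (0.890%) and 177 lower (2.16%), 3.05% in all, and without control 1 only 115 genes in all were called. Leaving out control 1 or 2 leaves a single control, which is then assumed to vary as the treated samples do. All sums come from 16 and 13 control cells, so few UMIs stand behind most control values.

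Il7r encodes the receptor for the survival cytokine IL-7. It read 483 and 696 CPM in controls 1 and 2 and 296, 366, 307 and 265 in the treated samples. It fell by 1.04 on the log2 scale (SE 0.186, edgeR adjusted p = 0.00418), and by 1.34 without the deep barcodes (adjusted p = 0.000842). Without them control 3 read 358 CPM from 20 UMIs, inside the treated range. The fall kept its direction in all 18 alternatives but its call in 15, with log2 changes from -1.34 to -0.58. Among those that lost the call was the fit without control 2, which leaves a single control. After thinning, 53.8% ± 6.66 (SD, n = 3) of control members and 25.1% ± 2.82 (SD, n = 4) of treated members had an Il7r UMI, while other CD3+ cells had 40.4% ± 15.2 and 44.0% ± 1.79.

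Receptors for IL-2 moved less. Il2rb averaged 639 CPM in the 2 controls and 1136 ± 105 (SD) in the 4 treated samples, a log2 rise of 0.72 (edgeR adjusted p = 0.0187) that did not pass without the deep barcodes (adjusted p = 0.158), without control 1 (0.121) or without treated sample 1. Of 23 genes of the IL-2, IL-15 and IL-7 receptors and their response, 3 rose (Il2rb, the kinase Jak1 and Dusp5) and Il7r fell. The median log2 change of the list was 0.35 beside 0.07 over all genes tested. Without the deep barcodes 0 rose and 2 fell, Il7r and the survival gene Bcl2 (adjusted p = 0.0139).

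Tissue and homing genes rose in part. Itga1 read 75.4 and 9.66 CPM in the controls and 246, 268, 272 and 290 in the treated samples. Every treated sample lay above both controls, with a log2 rise of 2.42 (SE 0.384, edgeR adjusted p = 0.00182), and of 2.14 without the deep barcodes (adjusted p = 0.00819). Of 19 genes for adhesion, residency and egress 5 rose and 0 fell, among them Cxcr4, Rgs1 and the egress receptor S1pr1 (34.4 against 162 CPM). Itga1, Rgs1 and S1pr1 but not Cxcr4 (adjusted p = 0.125) kept the call without the deep barcodes. Without control 1, Rgs1 (adjusted p = 0.442), Cxcr4 (0.46) and S1pr1 (0.108) lost it. S1pr1 and Itga1 have opposed roles in leaving and staying in tissue.

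Some NK receptor genes rose in the treated cells. Klre1 read 204 and 203 CPM in the controls and 628, 533, 561 and 672 in the treated samples (log2 rise 1.44, SE 0.212, edgeR adjusted p = 0.0012). Klrc2, the activating receptor NKG2C, averaged 234 and 650 CPM (log2 rise 1.40, adjusted p = 0.00186), and the T and NK cell receptor Cd7 245 and 704 (1.38, adjusted p = 0.0012). In other CD3+ cells Klre1 averaged 56.8 and 322 CPM and Cd7 82.6 and 371. Neither rise differed from that in members by the edgeR interaction test (adjusted p = 0.149 and 0.469). Klrc2 rose less in members (log2 difference -0.88, adjusted p = 0.0253), a call lost without the deep barcodes. Of 19 tested NK receptor genes Klrc1, Klrc2, Klre1 and Ncr1 rose and 0 fell, and all but Klrc1 (adjusted p = 0.166) kept the call without the deep barcodes. B cells moved in the same direction at lower levels, with Klre1 at 4.20 and 79.2 CPM, Klrc2 at 4.20 and 62.2 and Cd7 at 4.97 and 82.0. The summed NK cell marker list read 947 to 1750 CPM in members of controls 1 and 2 and 2110 to 4332 in treated members, and in other CD3+ cells 1240 to 1285 and 1945 to 4229. The part of NK cell RNA in these changes was not tested.

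Prf1 encodes the pore-forming protein perforin. Ncr1 read 7.54 and 29.0 CPM in the controls and 149, 132, 141 and 167 in the treated samples (log2 rise 3.01, edgeR adjusted p = 0.00175), beside 7.55 and 46.5 CPM in B cells, and without control 1 its adjusted p was 0.063. Prf1 read 7.54 and 38.7 CPM in the controls and 222, 101, 210 and 206 in the treated samples (log2 rise 3.03, adjusted p = 0.0145), beside 13.7 and 122 CPM in B cells, and 0.235 without control 1. In other CD3+ cells Ncr1 averaged 28.7 and 125 CPM and Prf1 42.3 and 205. Neither rise differed from that in members by the edgeR interaction test (adjusted p = 0.55 and 0.567). Of 15 tested granule genes Prf1 and Cd7 rose and the granule proteoglycan Srgn fell (1151 against 775 CPM). Gzma had 676 and 1973 CPM with an adjusted p of 0.239, and Gzmb 189 and 250 (adjusted p = 0.866).

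Transcription factors rose in 5 of 23 cases and fell in 0. They were Satb1, a chromatin organiser of T cells (164 and 530 CPM, log2 rise 1.66, edgeR adjusted p = 0.00546), Runx3 (180 and 433), Id2 (315 and 679), Gata3 (35.5 and 116) and Klf2, which maintains S1pr1 expression (430 and 829). Only Satb1 and Runx3 kept the call without the deep barcodes, in which Id2 had an adjusted p of 0.0671, Gata3 0.0803 and Klf2 0.151. Without control 1, Satb1 (adjusted p = 0.0895), Id2 (0.108), Gata3 (0.298) and Klf2 (0.369) did not pass, while Runx3 did. Satb1 was also higher with treatment in other CD3+ cells, at 60.3 and 157 CPM in controls 1 and 2 and 667 to 1010 in the treated samples. Helios, a gate gene, was not tested. Tbx21 (48.9 and 112 CPM, adjusted p = 0.0982) and Eomes (214 and 193, adjusted p = 0.899) did not pass. Of T cell receptor genes Trbc1 (317 and 622 CPM) and the costimulatory receptor Cd28 (150 and 360) rose. Without the deep barcodes Cd28 lost the call (adjusted p = 0.103), and with control 3 added as well Trbc1 had a log2 change of -0.07 (adjusted p = 0.94).

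Dividing-cell genes fell. Of 17 tested replication and mitosis genes 15 were lower and 0 higher, with a median log2 change of -3.51, and 7 were lower without the deep barcodes. Mki67 averaged 428 CPM in controls 1 and 2 and 37.7 ± 33.3 (SD, n = 4) after treatment (log2 fold change -3.71, edgeR adjusted p = 0.000816), but without its deep barcode control 3 read 35.8, inside the treated range of 8.98 to 83.2. Stmn1 read 664 and 251 CPM in controls 1 and 2, and no treated sample was above 40.2. Hmmr, Birc5, Ccnb2, Tpx2, Cdc20, Ube2c, Cenpf and Spc24, all of spindle or mitosis, and the histone gene H2ac8 were the other members of this group named by the rule, with means of 60.8 to 178 CPM in the controls and at most 12.3 in the treated samples. After thinning, 17.1% ± 12.4 (SD, n = 3) of control and 2.84% ± 1.18 (SD, n = 4) of treated members had an Mki67 UMI, and other CD3+ cells had 18.3% and 3.61%. Without the deep barcodes Mki67 (log2 fold change -3.48, adjusted p = 0.003) and Stmn1 (-4.11, 1.45e-05) still fell. Cdc20 (-3.97, 0.0981) and Ube2c (-3.71, 0.106) did not pass, and Hmmr was too low to be tested. The interferon-induced chemokine Cxcl10 (424 and 19.4 CPM) and the Fc receptor Fcgr3 (134 and 29.0 CPM, adjusted p = 0.15 without control 1) also fell, with adjusted p of 0.00504 and 0.0139 without the deep barcodes. Serpine2 was called lower with the deep barcodes in (75.2 and 1.61 CPM), but without them it read 0, 12.1 and 0 CPM in the controls and at most 3.44 in the treated samples, too low to be tested.

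Markers of other cells moved with these groups. The summed neutrophil markers read 36132 and 1536 CPM in control members 1 and 2 and 215 to 2319 in treated members, and 5 of 6 were lower by the test. The tumour keratins read 302 and 96.6 CPM in the controls, and 0.600 to 13.8 with treatment, and 2 of 2 were lower. B cell markers read 234 to 242 and 379 to 855 CPM, with 0 of 7 called. Without the deep barcodes 3 of the neutrophil markers and both keratins were still lower. The part of this RNA in the falls listed above was not tested.

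Other genes that rose were Isca1, Phf8, Fchsd2, Cdk17, Nr1h2, Zfp592, Atp8a1, the micro-RNA gene model Mir6236 and the endoplasmic reticulum chaperone Dnajb9. All of them were also higher on average with treatment in other CD3+ cells, among them Isca1 (20.6 and 63.7 CPM), Fchsd2 (32.1 and 104) and Cdk17 (41.5 and 114). By the edgeR interaction test only Mir6236 rose more in members (adjusted p = 0.0178), a call lost without the deep barcodes (0.289). Fchsd2, a membrane-trafficking gene, averaged 13.4 and 133 CPM. Dnajb9 had 0 UMIs in controls 1 and 2 and a mean of 50.3 CPM after treatment, at least 3.76-fold higher when these controls together are set to 3 counts, but control 3 read 20.2 CPM (17.9 without its deep barcode). Mir6236 averaged 116 and 821 CPM, but also 179 and 648 in B cells. Without the deep barcodes Phf8, Zfp592 and Atp8a1 did not pass (adjusted p of 0.0897, 0.156 and 0.0681), with log2 changes of 3.04, 2.14 and 3.00 beside 3.44, 2.55 and 2.42 with them. Of 8 tested Ly49 genes Klra8 rose, from 0 UMIs in the controls to 53.7 CPM, at least 4.52-fold on the same bound, beside 9.58 and 60.2 CPM in B cells. Its adjusted p was 0.054 without the deep barcodes.

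**Figure D4:**
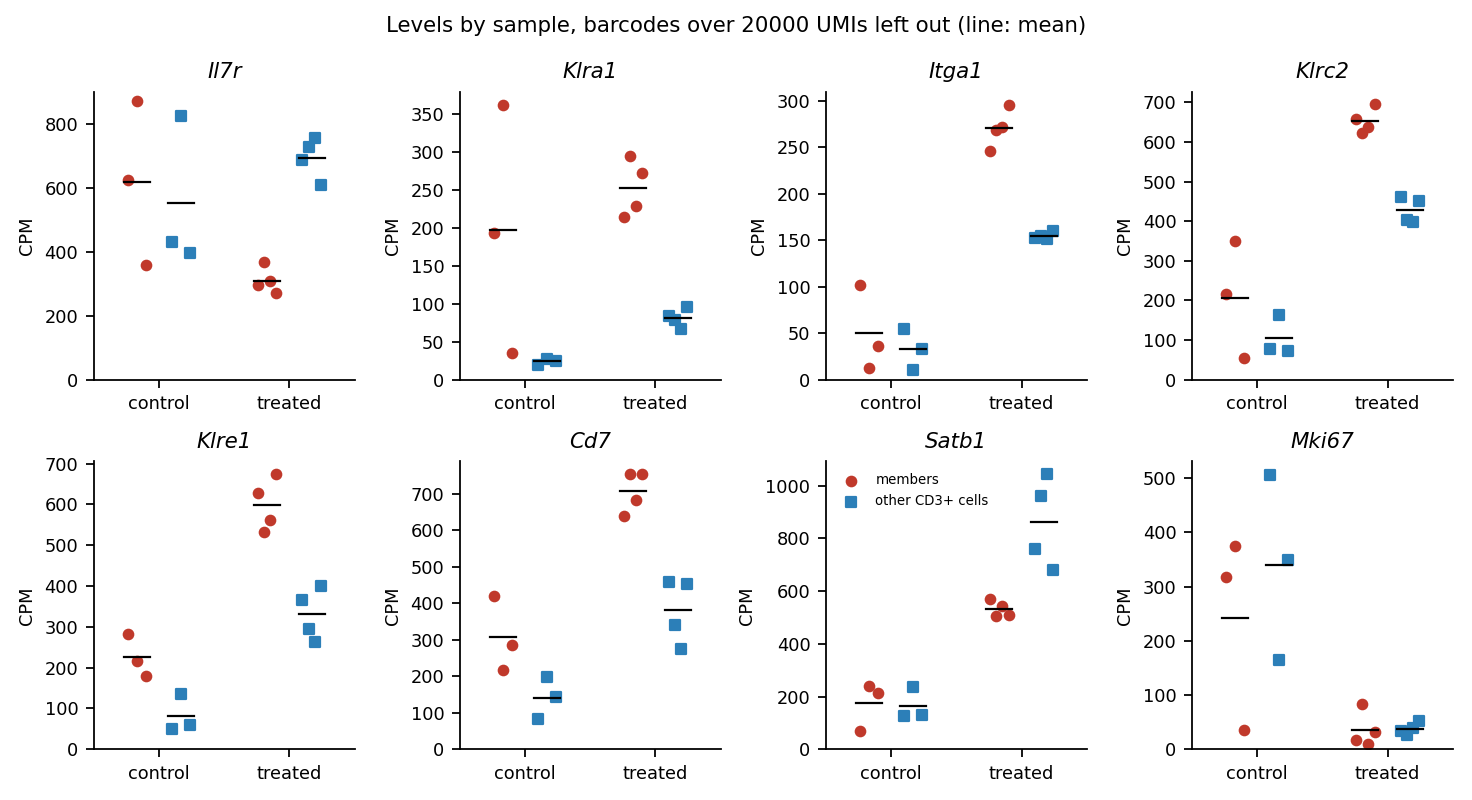
CPM by sample in the Klra6+ Ikzf2+ T cells (red circles) and other CD3+ cells (blue squares), controls and treated, with barcodes over 20000 UMIs left out and control 3 included; lines are means. Il7r is lower in treated members (270 to 366 CPM) than in the other treated CD3+ cells (607 to 755). Itga1, Klre1 and Cd7 are higher with treatment both in members and in other CD3+ cells.

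The third comparison asked whether the treatment difference in these cells differed from that in other CD3+ cells of the same samples, as an interaction in edgeR with the sample as a block. Other CD3+ cells are a mixed pool whose make-up differed between the groups. Over all samples, Cd8b1+ cells were 447 of 1061 control and 2702 of 11537 treated cells, and Trdc+ cells 66 and 1876. The part of this make-up in the interaction values was not tested. It called 303 of 11766 genes (2.58%), 222 with a more positive (1.89%) and 81 with a more negative change (0.688%) in the members. Of the calls 73.3% were more positive, and 60.6% under median-of-ratios scaling. With barcodes over 20000 UMIs left out 14 of 10848 genes passed the threshold (0.129%), 11 with a more positive (0.101%) and 3 with a more negative change (0.0277%). The genes with the most positive differences were Myc, Lat2, Nolc1, Tpm1, Nras and Nedd4, with log2 differences of 2.70 to 3.60, and all 6 lost the call without the deep barcodes, where Myc had a log2 difference of 0.48 (adjusted p = 0.739), Nras 0.13 (0.959) and the other 4 between 1.10 and 1.44. Both are the genes of the injected plasmids, and the deep barcodes among other control CD3+ cells numbered 54, 18 and 59 per library. Of the most negative, Dusp4, St6galnac3, Pcnx and Trgv2 did not pass there either, with log2 differences of -1.62, -1.06, -1.71 and -1.25 beside -2.53, -2.31, -2.22 and -2.12 with the deep barcodes.

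Il7r kept its call. In other CD3+ cells without the deep barcodes it read 431, 825 and 397 CPM in the controls and 686, 726, 755 and 607 in the treated samples, while in members it read 624, 870 and 358, and then 296, 366, 307 and 270. The groups overlap in other CD3+ cells. The change in members was lower than that in other CD3+ cells by a log2 difference of -1.75 (SE 0.191, edgeR adjusted p = 3.56e-05), and of -1.27 (adjusted p = 0.000372) without the deep barcodes. Adding control 3 as well gave -1.16 (adjusted p = 0.000797).

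Klra1 was already high in members of controls 1 and 2. It read 204 and 290 CPM there (35.8 in control 3 without its deep barcode) and 214 to 295 in treated members, with a change that did not pass (adjusted p = 0.927), and averaged 12.5 and 78.6 CPM in other CD3+ cells. The log2 difference was -2.48 (edgeR adjusted p = 0.000112) and -1.71 without the deep barcodes (adjusted p = 0.0171), but with control 3 added it did not pass (adjusted p = 0.172). The gate requires a Klra6 UMI of members in both groups, and reads can be split between Ly49 genes. The part of the gate in the Klra1 levels and in this difference was not tested. Atp1b1, a subunit of the sodium pump, averaged 144 and 138 CPM in members and 22.8 and 112 in other CD3+ cells (log2 difference -2.18, adjusted p = 0.00192, 0.00754 without the deep barcodes and 0.105 without control 1). Itga4, the alpha 4 integrin, passed only without the deep barcodes (log2 difference 0.84, adjusted p = 0.0136), from an adjusted p of 0.505 with them.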

How the data were processed

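The deposited values are UMI counts per gene and barcode, 1 matrix per sample. Libraries were 10x 3′ v3.1 per the labels' protocols. bcl2fastq 5.0.1 and Cell Ranger 7.0.0 are listed in the submitters' processing notes. The genome build is not given in the sources used here. Libraries held 37653600 to 181755269 UMIs. Cells were taken by UMIs of named genes. The members and gene lists were chosen with earlier results of these data known. Barcodes were filtered as in the report, doublets scored with Scrublet (scanpy 1.11.5) and kept. B cells are CD3- barcodes with at least 2 UMIs of Cd79a, Cd79b and Ms4a1.

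Counts were summed per sample and class and fitted with edgeR 4.0.16 (R 4.3.3; TMM, filterByExpr, quasi-likelihood, Benjamini-Hochberg over all genes tested) in samples with at least 10 members. Gate genes were left out of the fits. Shares were compared by exact permutation (Python 3.11.15, numpy 2.4.6). The gate, the permutation test, the thinning and both edgeR designs were tested on simulated data, and the other steps were not. CPM means and SDs are over the samples named. Intervals and floors cover counting error only.

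Named genes were, against other CD3+ cells, up to 15 higher and 10 lower by median ratio with one sign in all samples and at least 50 CPM. Between groups they were up to 12 per direction past the threshold, at 50 CPM or more and without overlap, and for the interaction up to 6. Gate, mitochondrial, ribosomal, immunoglobulin and unnamed genes, and genes over 5 times higher in barcodes without T or NK UMIs, were not named. List members were named as examples. Figures were drawn with matplotlib 3.10.9.

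Some genes are not reported here.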

Additional observations from a re-analysis of the deposited data

Results flagged for a closer look

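Among 122 sets of 4 treated samples, 11 had 1 sample far from the other 3, where chance gives about 1 in 20. Treated sample 2 stood apart most often. It was high in Cd160 (354 CPM, others 304 to 311) and Ube2c (22.7, others 0.860 to 2.40), and low in Prf1 (101, others 206 to 222), Dusp4 (1.51, others 3.85 to 4.30), Zap70 (157, others 180 to 182), Tyrobp (722, others 953 to 986) and Eomes (157, others 200 to 208). Treated sample 4 was high in Klrd1 (710 CPM, others 611 to 624) and Itga4 (1074, others 929 to 940). Treated sample 3 was high in Zfp592 (68.0 CPM, others 49.9 to 52.8), and treated sample 1 in Areg (9.47, others 0 to 1.28).

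For 27 named genes the treatment difference in the Klra6+ Ikzf2+ cells differed from that in other CD3+ cells by edgeR's interaction test. The log2 difference was positive for Myc (3.60), Lat2 (3.15), Nolc1 (3.08), Tpm1 (3.03), Nras (2.96), Nedd4 (2.70) and Mir6236 (0.97). Among receptor genes it was negative for Klra1 (-2.48), Klra7 (-1.91), Klrd1 (-1.11), Klrb1c (-1.04), Klrk1 (-1.02), Klrc2 (-0.88), Trbc2 (-0.64), Hcst (-0.60), Il7r (-1.75) and Trgv2 (-2.12). It was also negative for Dusp4 (-2.53), St6galnac3 (-2.31), Pcnx (-2.22), Atp1b1 (-2.18), Ifng (-1.995), Stmn1 (-1.26), Tcf7 (-1.23), Srgn (-0.74), Junb (-0.62) and Bcl2 (-0.62). Of these 27, 3 passed without barcodes over 20000 UMIs (Klra1, Atp1b1 and Il7r). Klra1 and Klra7 are Ly49 genes like the gate gene Klra6, and the part of the gate in their differences was not tested.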

How the results depend on the processing

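For treated against control in members, 527 genes were called, against 928 with no filter, 320 after thinning the sums, 1276 with every sample that had a member, 250 without barcodes over 20000 UMIs and 115 to 501 when 1 sample was left out. The lowest came without control 1. For the interaction, 303 genes were called, against 554 with no filter, 160 after thinning, 463 without genes high in other cells, 0 with every sample that had a member (1151 at an unadjusted p under 0.05, edgeR), 14 without barcodes over 20000 UMIs, 18 with both of these and 61 to 340 when 1 sample was left out. DESeq2 1.42.0 called 586 and 329. The number of genes tested also differed between these settings, and the causes of the differences were not tested. Il7r missed the interaction threshold in 1 of 17 alternatives, with control 3 and its deep barcode added (adjusted p = 0.161).

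Both shares kept their direction in every alternative. Neither passed 0.05 after adjustment in those that used all samples, and with 1 sample left out the smallest possible p was 0.0667 or 0.1, so those could not pass. The replicate-block differences carry no p. Leaving out 1 sample gave differences of 2.04 to 4.29 percentage points of CD3+ cells and 1.91 to 2.52 of kept barcodes. Leaving out members with an Ncr1 UMI cut the former from 3.01 to 1.38. Whether the same replicate numbers pair the samples could not be told from correlations of deviations from the group mean. In members those of the same number were -0.0455 and -0.0198. With only 2 controls these cannot decide, because the deviations of control 1 and control 2 mirror each other. In other CD3+ cells correlations were 0.0981 to 0.208 for the same number and -0.243 to 0.245 for different numbers. With the replicate number as a block, 328 genes were called and the shares differed by 2.34 and 1.91 points. Of 55 genes named as changed in members, 53 kept their direction in every alternative and 12 their call. The exceptions were Nedd4 (log2 change -0.35 with every sample that had a member) and Trbc1 (-0.069 with control 3 added and barcodes over 20000 UMIs left out). Of 27 named interaction genes 25 kept their direction and 0 their call throughout. Trbc2 turned to 0.047 with control 3 added and to 0.33 with the deep barcodes also left out, and Hcst to 0.13 there. The alternatives with barcodes over 20000 UMIs left out were chosen after seeing the data.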
